A study of Mus musculus with 24 samples.

Results

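Arginine metabolism in tumor macrophages was followed through 8 genes chosen by name for their place in the pathway: the arginases Arg1 and Arg2, the inducible nitric oxide synthase Nos2, the arginine transporter Slc7a2, the citrulline recycling enzymes Ass1 and Asl, and the polyamine enzymes Odc1 and Srm. All 8 were found among the 55487 gene IDs of the count table, and 7 of the 8, all but Slc7a2, were among the 3941 genes treated as expressed. A gene counted as expressed where its mean level over tumors reached 10 CPM and 10 times its expected background, with 12 satellite-like loci left out.

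The libraries came from macrophages sorted as CD45+, CD11b+ and F4/80+ out of orthotopic MC38 tumors in C57BL/6J mice, MC38 being a mouse colon carcinoma line. In tumors 2 and 1 of the APC-KO genotype the carcinoma cells lacked APC, in tumors 2 and 1 of the APC-WT genotype they kept it, and the sorted host cells are not described as edited, so that their own Apc level does not check the labels. Each of the 4 tumors gave 6 libraries made with an ultra low input Nextera XT protocol. The labels call these 6 libraries replicates of one sample, so p-values over libraries measure the spread between libraries, which may be technical. The number of animals behind a tumor, the number of MC38 clones and any further treatment are not given in the sources used here.

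Arginine that enters a macrophage has competing fates. Arginase splits it into urea and ornithine, and ornithine feeds polyamines through ornithine decarboxylase or proline through ornithine aminotransferase. Nitric oxide synthase turns arginine into nitric oxide and citrulline, from which argininosuccinate synthase and argininosuccinate lyase rebuild arginine. In mouse macrophages Arg1 is classically induced by interleukin-4 and Nos2 by interferon-gamma with microbial products, and tumor macrophages may express both.

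Depth and background differed between the genotypes. Libraries held 13464061 to 17196820 counts in APC-KO tumor 2, 8895722 to 19328572 in APC-KO tumor 1, 28018638 to 46837543 in APC-WT tumor 2 and 74972634 to 93568353 in APC-WT tumor 1. Expressed genes took 31.8%, 33.2%, 73.6% and 81.7% of these counts, and satellite-like loci 38.5%, 37.9%, 7.08% and 1.32%, in the same order of tumors. Levels are therefore given as scaled CPM, which is CPM taken over the TMM-scaled total of expressed genes, beside the background expected from 1974 olfactory and vomeronasal receptor genes and the gene's exon length. Of the defining macrophage genes, 10 of the 10 listed were expressed, a limit set on the mean over tumors and not on each tumor. Of the sort antigens, Itgam, which encodes CD11b, averaged 277, 276, 1743 and 1607 scaled CPM across APC-KO tumors 2 and 1 and APC-WT tumors 2 and 1. Adgre1, which encodes F4/80, averaged 283, 271, 1127 and 1276. Ptprc, which encodes CD45, averaged 403, 387, 1131 and 1143. All 3 antigens were lower in APC-KO tumors (log2 change −1.98, −1.65 and −0.95, edgeR quasi-likelihood test, adjusted p = 0.00251, 0.00289 and 0.00758). They belong to the 10 listed macrophage genes, of which 0 were called higher and 5 lower, against 28.4% and 21.7% of expressed genes. Without a transcript length term in the test 1 was higher and 4 lower, against 32.7% and 30.8%. Summed, the 10 genes held 17163, 17315, 18633 and 21534 scaled CPM across APC-KO tumors 2 and 1 and APC-WT tumors 2 and 1. In APC-KO tumor 2 over tumor 1, 3 were called higher and 2 lower, against 15.2% and 18.1% of expressed genes. In APC-WT tumor 2 over tumor 1, 0 were called higher and 7 lower, against 19.5% and 27.4%. In sorted bulk samples, fewer cells of a type and less RNA per cell cannot be told apart.

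**Figure D1:**
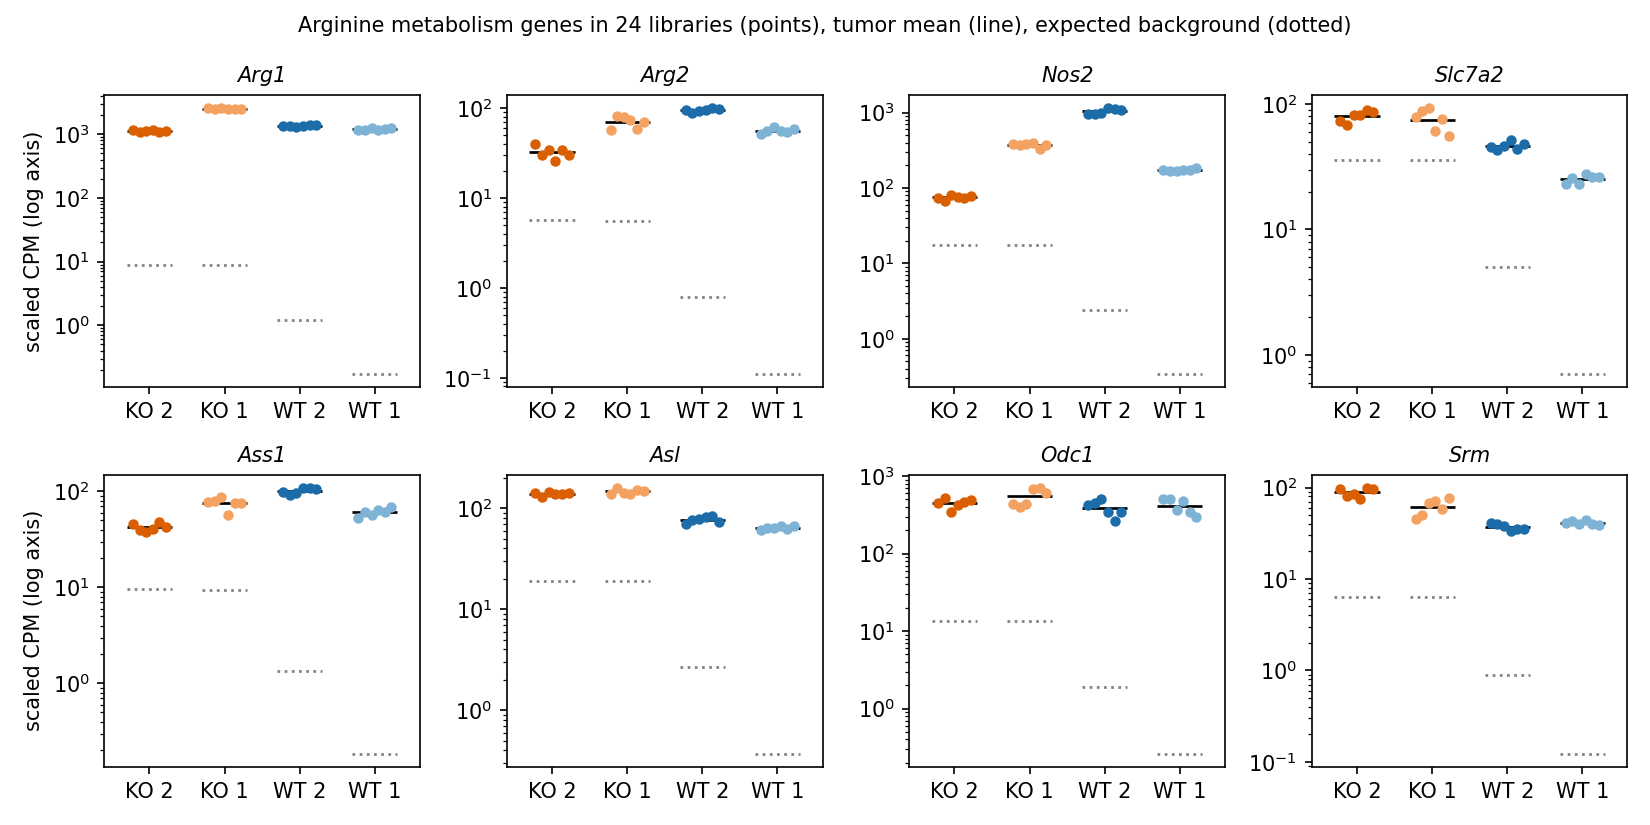
Level of each of the 8 genes in scaled CPM (log axis, a separate range in each panel) in the 6 libraries (points) of APC-KO tumors 2 and 1 (orange) and APC-WT tumors 2 and 1 (blue), with the tumor mean (line) and the expected background (dotted). Nos2 runs from 67.8 in APC-KO tumor 2 to 1141 in APC-WT tumor 2, Asl is higher in every APC-KO library than in any APC-WT library, and Slc7a2 lies nearer to its background in the APC-KO tumors than the other 7 genes do.

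Arg1 (ENSMUSG00000019987; GRCm38 chromosome 10, 24915221 to 24927484, minus strand), the cytosolic arginase, was one of the most abundant transcripts of these macrophages and stood out in a single APC-KO tumor. Its lowest, median and highest libraries held 1069.8, 1131 and 1186 scaled CPM in APC-KO tumor 2 and 2456, 2518 and 2555 in APC-KO tumor 1. The APC-WT libraries held 1317, 1350.5 and 1422 in tumor 2 and 1149, 1191 and 1260.1 in tumor 1. All 6 libraries of APC-KO tumor 1 lay above all other libraries, while APC-KO tumor 2 lay at the lower end, overlapping APC-WT tumor 1. Per kb of transcript, Arg1 ranked 81, 32, 60 and 71 of 3941 expressed genes in APC-KO tumors 2 and 1 and APC-WT tumors 2 and 1, and it was the highest of the 8 genes in each tumor. With the transcript length offset, the mean of the APC-KO tumors differed from that of the APC-WT tumors by less than the spread between tumors (log2 change 0.035, SE 0.393, edgeR quasi-likelihood test, adjusted p = 0.948). The direction of that small value turned under several alternatives, and the 4 APC-KO to APC-WT tumor pairs ran from −0.69 to 0.54. Without the offset, which the levels above do not carry, the change was 0.53 (edgeR, adjusted p = 0.306). The pairs then ran from −0.25 to 1.09.

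Arg2 (ENSMUSG00000021125; chromosome 12, 79130777 to 79156301, plus strand), the mitochondrial arginase, was far lower than Arg1. It held 25.6, 32.2 and 39.3 scaled CPM (lowest, median and highest library) in APC-KO tumor 2 and 56.5, 71.1 and 80.8 in APC-KO tumor 1. APC-WT libraries held 88.4, 95.9 and 99.2 in tumor 2 and 51.0, 55.6 and 61.9 in tumor 1. APC-KO tumor 2 lay below every other tumor and APC-WT tumor 2 above, and APC-KO tumor 1 overlapped APC-WT tumor 1. The genotype change was −1.10 (SE 0.423) with an adjusted p of 0.0871 by edgeR, and it did not pass the threshold of 0.05. Without APC-WT tumor 1 the change was −1.39, without APC-WT tumor 2 −0.73 and without APC-KO tumor 2 −0.71. Without the length offset it was −0.57 (edgeR, adjusted p = 0.312), and the 4 pairs ran from −1.54 to 0.30. Per kb the mean was 22.6, 48.8, 66.4 and 39.3 scaled CPM across APC-KO tumors 2 and 1 and APC-WT tumors 2 and 1, against 766, 1699.7, 921 and 811 for Arg1. Vti1b, with 40251 counts in all against 37867 for Arg2, overlaps Arg2 by 285 bases on the other strand. Whether the counting used strand is not given in the sources used here, so some Arg2 counts may belong to Vti1b.

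Nos2 (ENSMUSG00000020826; chromosome 11, 78920787 to 78960254, plus strand), the inducible nitric oxide synthase, varied more between tumors than any other of the 7 expressed members. It held 67.8, 75.5 and 81.3 scaled CPM (lowest, median and highest library) in APC-KO tumor 2 and 334, 377 and 394 in APC-KO tumor 1. The APC-WT libraries held 946, 1029 and 1141 in tumor 2 and 168, 172 and 182 in tumor 1. None of the 4 tumors overlapped another, and both genotypes held one high and one low tumor. Per kb, Nos2 ranked 3586, 900, 278 and 1926 of 3941 expressed genes in APC-KO tumors 2 and 1 and APC-WT tumors 2 and 1. The genotype change of −0.86 (SE 1.09, edgeR, adjusted p = 0.539) was smaller than its error, the 4 pairs ran from −3.21 to 1.69, and the change became 0.96 without APC-WT tumor 2. Expected background was 17.4 and 17.3 scaled CPM across APC-KO tumors 2 and 1 and 2.44 and 0.339 in APC-WT tumors 2 and 1.

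Slc7a2 (ENSMUSG00000031596; chromosome 8, 40862396 to 40922308, plus strand), the cationic amino acid transporter CAT2 that brings arginine into activated macrophages, could be measured well only in the APC-WT tumors. It held 68.0, 81.7 and 88.9 scaled CPM (lowest, median and highest library) in APC-KO tumor 2 and 55.3, 77.8 and 92.5 in APC-KO tumor 1. In APC-WT libraries it held 42.9, 46.1 and 51.5 in tumor 2 and 22.9, 25.8 and 27.4 in tumor 1. All APC-KO libraries lay above all APC-WT libraries. The background expected for this long transcript was 36.0 and 35.8 in APC-KO tumors 2 and 1, against 5.05 and 0.702 in APC-WT tumors 2 and 1, so that 44.0, 39.5, 41.4 and 24.5 scaled CPM remained above it in that order of tumors. In the fit of all 53705 genes scaled to expressed genes the change was 1.13 (SE 0.288, edgeR, adjusted p = 0.00716), where 59.0% of all genes tested were called higher and 2.75% lower. After subtraction of the background it was 0.53 (adjusted p = 0.154), and without APC-KO tumor 2 it was 1.01 (adjusted p = 0.0869).

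Ass1 (ENSMUSG00000076441; chromosome 2, 31470207 to 31520672, plus strand), argininosuccinate synthase, followed the same order of tumors as Arg2 and Nos2. It held 37.9, 41.2 and 47.7 scaled CPM (lowest, median and highest library) in APC-KO tumor 2 and 57.2, 76.5 and 87.9 in APC-KO tumor 1. The APC-WT libraries held 90.6, 102.7 and 108.8 in tumor 2 and 52.2, 61.1 and 69.2 in tumor 1. APC-KO tumor 2 lay below all other libraries and APC-WT tumor 2 above, and the remaining tumors overlapped. The genotype change was −0.74 (SE 0.359, edgeR, adjusted p = 0.147), and −0.44 without the length offset (edgeR, adjusted p = 0.350). The processed locus Gm5424 shares 84.7% of its 31-base words with Ass1 and took 15899 counts against 40778 for Ass1, so the split of reads between them is uncertain. Their sums, 67.8, 110.5, 142.8 and 82.1 scaled CPM across APC-KO tumors 2 and 1 and APC-WT tumors 2 and 1, kept the order of the tumors.

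Asl (ENSMUSG00000025533; chromosome 5, 130011258 to 130029247, minus strand), argininosuccinate lyase, which releases arginine in the last step of recycling, was the only one of the 7 expressed members called by edgeR in the genotype test with the length offset. It held 128.8, 140.1 and 146.1 scaled CPM (lowest, median and highest library) in APC-KO tumor 2 and 139.5, 144.7 and 159.7 in APC-KO tumor 1. In APC-WT libraries it held 70.1, 78.0 and 83.9 in tumor 2 and 61.5, 64.0 and 66.4 in tumor 1. The APC-KO tumors overlapped each other and lay above both APC-WT tumors in all 12 libraries. Asl rose in APC-KO tumors by a log2 change of 1.23 (SE 0.136, edgeR, adjusted p = 0.00387), and the 4 pairs ran from 1.04 to 1.44. When the libraries were scaled over all genes, background included, the change of Asl turned to −2.89 beside a median of −4.01 for expressed genes, 1.11 above that median, and all other changes here are given relative to expressed genes. Of the 3941 genes tested, 28.4% were called higher and 21.7% lower, so 1 of 7 members called higher and 0 called lower was no larger a share than among all genes. With no transcript length in the model the adjusted p was 0.00299 for Asl. With the length offset over 3941 genes and 4 tumor sums, 0 members were called lower by edgeR, 0 by DESeq2 and 0 by limma-voom. Among members that were lower in this edgeR fit, 0 had an unadjusted p under 0.05, the lowest being 0.0511 for Arg2. With genes taken as expressed from 5 times their expected background, Arg2 was called lower by edgeR (−1.27, adjusted p = 0.0480). In the edgeR fit of all 53705 genes, which has no length offset, Nos2 was −1.41 with an unadjusted p of 0.0487 and an adjusted p of 0.0660. Asl (1.04, adjusted p = 0.000639), Srm (0.96, adjusted p = 0.00684) and Odc1 (0.34, adjusted p = 0.0448) passed in that fit. Arg1 (0.53), Arg2 (−0.57) and Ass1 (−0.44) did not. Of all genes tested there, 59.0% were called higher and 2.75% lower.

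Odc1 (ENSMUSG00000011179; chromosome 12, 17544794 to 17551505, plus strand), ornithine decarboxylase and the entry to polyamine synthesis, differed more between libraries of the same tumor than between genotypes. It held 349, 455 and 523 scaled CPM (lowest, median and highest library) in APC-KO tumor 2 and 403, 527 and 707 in APC-KO tumor 1. The APC-WT libraries held 262, 388 and 499.9 in tumor 2 and 298, 418 and 513 in tumor 1. Libraries of all 4 tumors overlapped. The tumor means of 451 and 548 scaled CPM across APC-KO tumors 2 and 1 lay above those of 389 and 416 in APC-WT tumors 2 and 1, and the change of 0.43 (SE 0.182) did not pass by edgeR (adjusted p = 0.110) but passed by DESeq2 (adjusted p = 0.0230). The coefficient of variation between libraries was 13.5%, 25.2%, 22.4% and 22.1% in APC-KO tumors 2 and 1 and APC-WT tumors 2 and 1. Counting error at the lowest count would give 2.32%, 2.76%, 1.34% and 0.757%, and the median expressed gene varied by 9.14%, 11.6%, 5.59% and 4.41%.

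The libraries of APC-WT tumor 2 fell into separate sets, and Odc1 was among the members that went with them. In that tumor, a chi-square comparison of counts over expressed genes gave 12.4 to 36.0 per degree of freedom for pairs among libraries 1 to 3 or among libraries 4 to 6, and 66.2 to 177 for pairs across. Odc1 held 429.97 to 499.9 scaled CPM in libraries 1 to 3 of that tumor and 262 to 346 in libraries 4 to 6. Nos2 held 946 to 983 and 1075 to 1141 in the same libraries. Arg2, Ass1 and Srm did not overlap between these sets either, while Arg1, Slc7a2 and Asl did. The share of all expressed genes without overlap between these sets was not counted. The separation can therefore not be read as particular to the members. In APC-KO tumor 1 Odc1 went the other way, with 403 to 441 in libraries 1 to 3 and 614 to 707 in libraries 4 to 6, although pairs within these sets (7.66 to 20.99) and across them (9.51 to 29.0) overlapped. In APC-WT tumor 1 libraries 1, 2 and 4 held 473 to 513 and libraries 3, 5 and 6 held 298 to 364, and here too pairs within (12.1 to 158) and across (105 to 473) overlapped. The genotype change of Odc1 was 0.013 (adjusted p = 0.948) from libraries 1 to 3 of each tumor alone and 0.80 (adjusted p = 0.0416) from libraries 4 to 6 alone. Asl was 1.25 and 1.20 in these fits (adjusted p = 0.00551 and 0.00354). The labels name no batch within a tumor, and the part of one in Odc1 was not tested. These sets were chosen after the data had been seen, those of the last 2 tumors are not separate, and none is a group of the study.

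Srm (ENSMUSG00000006442; chromosome 4, 148591503 to 148594993, plus strand), spermidine synthase, was higher in APC-KO tumors as measured, but its call depended on the handling of transcript length. It held 75.5, 90.6 and 99.3 scaled CPM (lowest, median and highest library) in APC-KO tumor 2 and 45.1, 63.3 and 76.8 in APC-KO tumor 1. In APC-WT libraries it held 33.5, 36.8 and 40.7 in tumor 2 and 38.8, 40.5 and 43.7 in tumor 1. All APC-KO libraries lay above all APC-WT libraries. Without a length term the change was 0.96 (edgeR, adjusted p = 0.0124). With the offset that removes each tumor's trend of level on transcript length it was 0.33 (SE 0.211, adjusted p = 0.250), and the 4 pairs ran from −0.067 to 0.68. In all, 4 members, Slc7a2, Asl, Odc1 and Srm, had both APC-KO tumor means above both APC-WT means, as did 40.9% of the expressed genes, and 0 members had them below, against 42.3% of expressed genes. With 2 tumors against 2, an exact two-sided permutation test cannot go below p = 0.333.

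**Figure D2:**
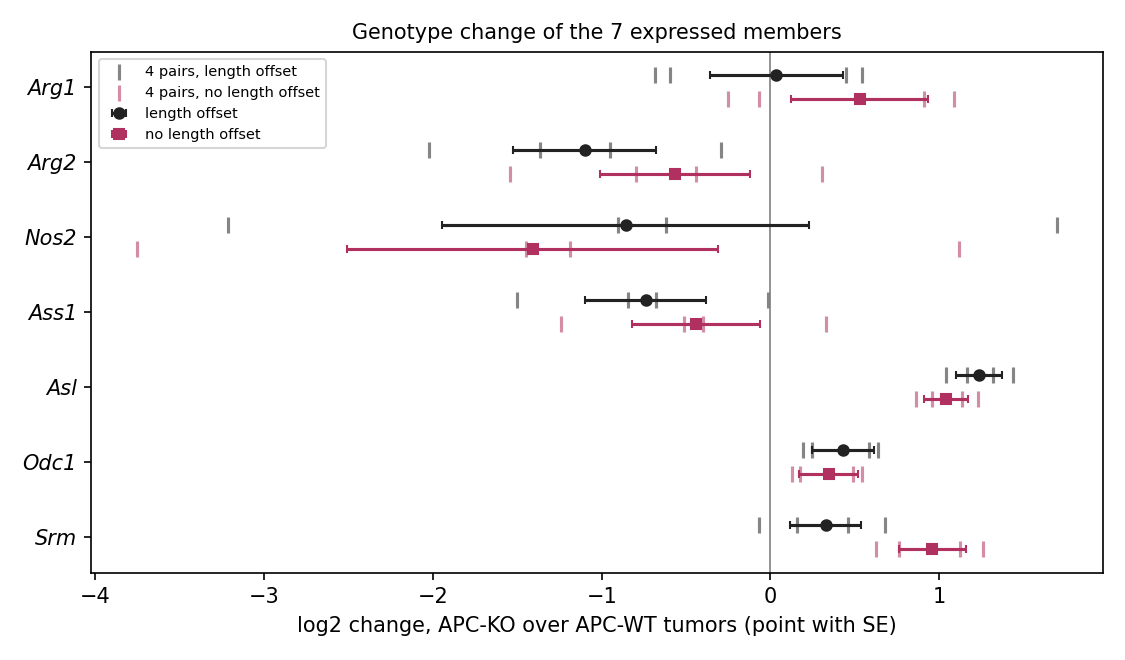
Log2 change of APC-KO over APC-WT tumors (x axis) for the 7 expressed members (y axis), with its SE, from the fit with a transcript length offset (black) and without one (red), scaled to expressed genes, and the 4 single pairs of tumors (ticks). Asl sits at 1.23 and 1.04 with its pairs close together, whereas the pairs of Nos2 spread from −3.21 to 1.69 with the offset.

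Between tumors of the same genotype Nos2, Arg1, Arg2 and Ass1 were called in both genotypes, with opposite signs as the tumors are numbered. In APC-KO tumor 2 over APC-KO tumor 1, Nos2 fell by 2.31 (SE 0.0527), Arg1 by 1.15 (SE 0.0272), Arg2 by 1.11 (SE 0.0944) and Ass1 by 0.84 (SE 0.0874) on the log2 scale. The adjusted p by edgeR over libraries was 6.02e-21 for Nos2, 1.09e-20 for Arg1, 7.98e-10 for Arg2 and 3.33e-08 for Ass1. Srm rose by 0.53 (adjusted p = 0.000215), while Asl at −0.078 (adjusted p = 0.238) and Odc1 at −0.28 (adjusted p = 0.216) did not pass. These 4 members called lower and 1 called higher of 7 stand against 18.1% and 15.2% of all expressed genes.

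In APC-WT tumor 2 over APC-WT tumor 1, Nos2 rose by 2.58 (SE 0.0516, edgeR, adjusted p = 6.12e-22), the largest change of the 7 expressed members in this contrast. Arg2 rose by 0.75 (adjusted p = 7.22e-08) and Ass1 by 0.74 (adjusted p = 3.79e-08). Asl rose by 0.28 (adjusted p = 2.90e-05) and Arg1 by 0.18 (adjusted p = 3.43e-06), both smaller. Odc1 at −0.098 (adjusted p = 0.668) and Srm at −0.15 (adjusted p = 0.209) did not pass. Of all expressed genes, 19.5% were called higher and 27.4% lower in this contrast, against 5 and 0 of the 7 members. The tumor numbers have no order across genotypes, so the opposite signs describe these 4 tumors only. The part of APC in these differences was not tested.

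Nos2 had a place of its own in this comparison. Counting Nos2 itself, 4 expressed genes had a change at least as large in size in the APC-KO contrast, 6 in the APC-WT contrast, and 1, Nos2, in both. Arg1, Arg2, Nos2 and Ass1 were lower in APC-KO tumor 2 and higher in APC-WT tumor 2, a pattern shared by 392 genes, or 9.95% of those expressed.

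**Figure D3:**
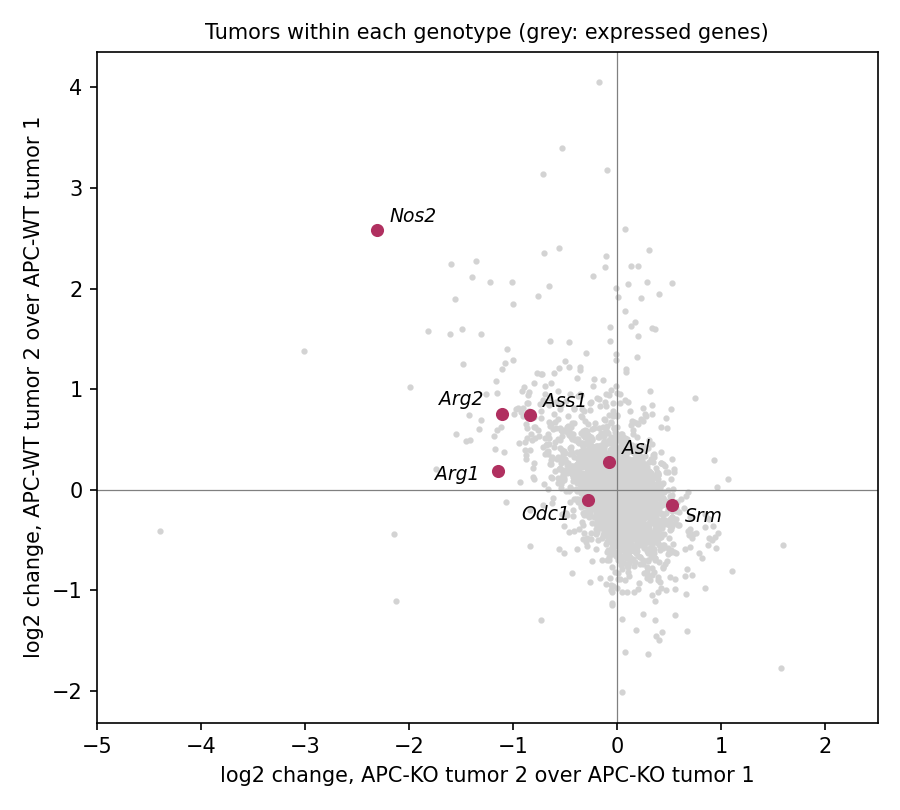
Log2 change between the tumors of each genotype, APC-KO tumor 2 over tumor 1 (x axis) and APC-WT tumor 2 over tumor 1 (y axis), for 3940 expressed genes (grey) and the 7 expressed members (red), with 1 gene left of the x axis at −5 not shown. Nos2 lies at −2.31 and 2.58, away from the other genes, Arg2, Ass1 and Arg1 lie on the same upper left side, and Asl, Odc1 and Srm lie near the middle.

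Summed neutrophil markers had the same order of tumors as Arg2, Nos2 and Ass1, but S100a8 and Ly6g, named below, did not. The 7 markers together ranged over libraries from 221 to 274 scaled CPM in APC-KO tumor 2, 457 to 526 in APC-KO tumor 1, 548 to 632 in APC-WT tumor 2 and 305 to 329 in APC-WT tumor 1. Of the 7, 4 were expressed, and those 4 were called lower in APC-KO tumor 2 than in tumor 1 and higher in APC-WT tumor 2 than in tumor 1. Among all expressed genes these shares were 18.1% and 19.5%. S100a8, a calprotectin subunit abundant in neutrophils, averaged 40.1, 93.9, 41.1 and 9.83 scaled CPM across APC-KO tumors 2 and 1 and APC-WT tumors 2 and 1. Ly6g, the defining neutrophil antigen, held 4.33, 5.17, 0.96 and 0.34, beside a background of 3.72, 3.69, 0.52 and 0.07. Epithelial markers, which MC38 cells could supply, ranged from 283 to 321, 215 to 275, 558 to 593 and 171 to 188 in the same order of tumors. Here 4 were expressed. In tumor 2 over tumor 1, 3 were called higher in APC-KO and 4 in APC-WT, against 15.2% and 19.5% of expressed genes. Fibroblast markers ranged from 509 to 558, 293 to 390, 852 to 972 and 1523 to 1673. Of the 5, 3 were expressed. Of these, 2 were called lower in APC-KO tumors, and all 3 were called higher in APC-KO tumor 2 than in tumor 1 and lower in APC-WT tumor 2 than in tumor 1. The shares over all expressed genes were 21.7%, 15.2% and 27.4% in that order. T and NK cell markers ranged from 208 to 242, 87.8 to 114, 43.3 to 44.7 and 18.7 to 24.6, and dendritic cell markers from 198 to 226, 189 to 242, 52.0 to 58.8 and 21.3 to 25.7. No gene of these 2 lists was expressed, and the background expected for their sums was 60.8, 60.4, 8.51 and 1.18 for T and NK cells and 96.3, 95.7, 13.5 and 1.88 for dendritic cells. The part of these cell types in the levels of the members was not tested.

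Ratios of counts within a library do not depend on the scaling of libraries. They are corrected neither for length, whose trend differs between tumors, nor for background, and are compared between tumors only. Nos2 had 0.0664 ± 0.0034 counts per Arg1 count in APC-KO tumor 2 and 0.149 ± 0.0082 in APC-KO tumor 1, against 0.760 ± 0.0544 in APC-WT tumor 2 and 0.145 ± 0.0052 in APC-WT tumor 1 (mean ± SD, n = 6 libraries each). APC-KO tumor 1 and APC-WT tumor 1 overlapped in this ratio. With the length offset, APC-KO tumor 1 over APC-WT tumor 1 was 0.54 for Arg1 and 1.69 for Nos2 on the log2 scale, against 1.09 and 1.11 without it, so the overlap of that ratio holds only without the offset. Ass1 had 0.303 ± 0.0279 counts per Asl count in APC-KO tumor 2 and 0.513 ± 0.0715 in APC-KO tumor 1, against 1.31 ± 0.112 in APC-WT tumor 2 and 0.947 ± 0.0699 in APC-WT tumor 1. No APC-KO library reached the lowest APC-WT library, at 0.850. Arg2 had 0.0285 and 0.0278 counts per Arg1 count in APC-KO tumors 2 and 1, against 0.0696 and 0.0468 in APC-WT tumors 2 and 1, also without overlap. Background makes up a larger part of these counts in APC-KO tumors. In APC-KO tumor 2 it was expected to give 17.4 of 75.1 scaled CPM for Nos2, 9.53 of 42.2 for Ass1, 5.63 of 32.3 for Arg2 and 19.1 of 139 for Asl. Arg1 had 8.79 of 1131 there.

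**Figure D4:**
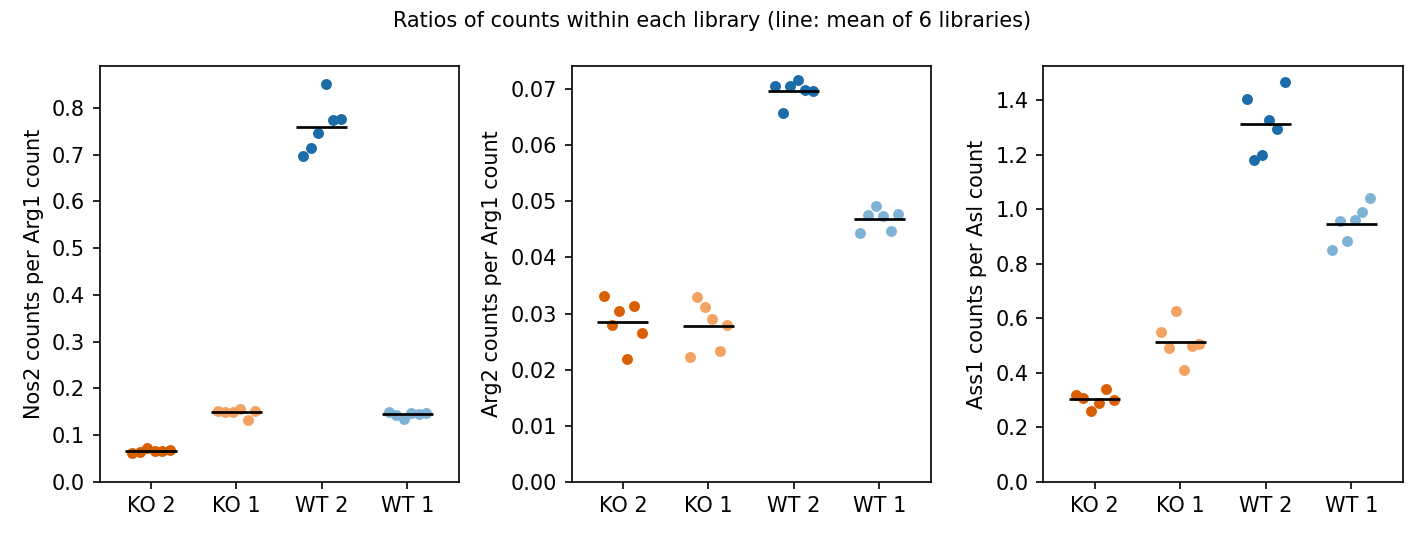
Counts of Nos2 per Arg1 count, Arg2 per Arg1 count and Ass1 per Asl count (y axes, linear from 0) in each library (points) of APC-KO tumors 2 and 1 and APC-WT tumors 2 and 1, with the mean of 6 libraries (line). The Nos2 to Arg1 ratio is high only in APC-WT tumor 2, at 0.760, among these 4 tumors, and the other ratios separate APC-KO from APC-WT libraries.

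The genes whose levels over the 4 tumors were most like those of a member, by the root mean square difference of centred log2 levels, also differed in how close they came. For Arg1 they were Prdx1 (0.11), Fth1 (0.15) and Fcrlb (0.17), with 7 genes within 0.2. For Nos2 they were Hspa1b (0.35), Ero1l (0.47) and Hspa1a (0.51), with 0 genes within 0.2. For Ass1 they were Por (0.040), Arrdc4 (0.088) and Pfkp (0.097), and for Arg2 Por (0.089), Pfkfb3 (0.099) and Arrdc4 (0.10), with 34 and 10 genes within 0.2. Asl (Stub1, Pex16 and Tsta3), Odc1 (Gpsm3, Chd7 and Atp6v0c) and Srm (Hnrnpa1, Pkmyt1 and AC114539.1) had 421, 585 and 211 genes within 0.2. Such counts depend on how far a gene moved between tumors as well as on the shape of its profile. These distances rest on 4 tumors and carry no test.

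Around the members, 8 lists of the wider pathway held 61 genes, of which 23 were expressed, 6 were called higher in APC-KO tumors and 2 lower, against 28.4% and 21.7% of all expressed genes. Without the length offset these counts were 8 and 7, against 32.7% and 30.8%. Arginine transport had 2 of 9 genes expressed and none called: Slc7a7, a basic amino acid exchanger, had 0.061 and its heavy chain Slc3a2 −0.25, which without the offset was −0.58 and passed (adjusted p = 0.0405). In the urea cycle and ornithine list 1 of 7 was expressed, Oat, which turns ornithine towards proline, at −0.45 (adjusted p = 0.0559), and at −0.49 without the offset (adjusted p = 0.0393).

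In the proline branch 3 of 5 genes were expressed and 1 rose, with a list median of −0.17 beside 0.042 over all genes tested. Pycrl, a pyrroline-5-carboxylate reductase, rose by 0.64 (adjusted p = 0.0135), or by 1.27 without the offset. The prolyl hydroxylase subunits P4ha1 and P4hb had −0.17 and −0.35 without passing, but −0.72 and −0.70 without the offset, where they passed (adjusted p = 0.0214 and 0.0234). In the polyamine list 7 of 13 were expressed, 2 rose and 1 fell (median 0.22). Oaz1, the antizyme that sends ornithine decarboxylase to degradation, rose by 0.88 (adjusted p = 0.00972). Paox, an acetylpolyamine oxidase that breaks polyamines down, rose by 1.38 (adjusted p = 0.0114), but without the length offset it was 0.78 and did not pass (adjusted p = 0.0532). Atp13a2, a lysosomal polyamine exporter, fell by 0.75 (adjusted p = 0.0217), and Oaz2, a second antizyme, had 0.22 without passing, and 0.41 without the offset (adjusted p = 0.0326).

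The hypusine list, whose enzymes modify Eif5a with spermidine, had all 3 genes expressed, with a median of 0.27. Dhps, deoxyhypusine synthase, rose by 0.92 (adjusted p = 0.00484), or by 1.56 without the offset. Dohh at 0.27 and Eif5a at −0.19 did not pass, while without the offset Dohh passed at 0.80 (adjusted p = 0.00265) and Eif5a turned to 0.34 (adjusted p = 0.0971). Of the nitric oxide cofactor list 3 of 13 were expressed, with a median of 0.13. Gch1, the first enzyme of tetrahydrobiopterin synthesis, rose by 0.87 (adjusted p = 0.00394), and Qdpr at 0.13 and Nosip at 0.040 did not pass, Qdpr passing at 0.72 without the offset (adjusted p = 0.0382). In the creatine branch, Gatm, which takes arginine into creatine synthesis, fell by 1.53 (adjusted p = 0.00504) and Ckb had 0.52 without passing. Gatm averaged 385 and 303 scaled CPM across APC-KO tumors 2 and 1 and 1039 and 1252 in APC-WT tumors 2 and 1. Of genes acting on arginine in proteins, Prmt1, an arginine methyltransferase, rose by 1.33 (adjusted p = 0.00342), and Rars, the arginyl-tRNA synthetase, had −0.11 without passing.

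**Figure D5:**
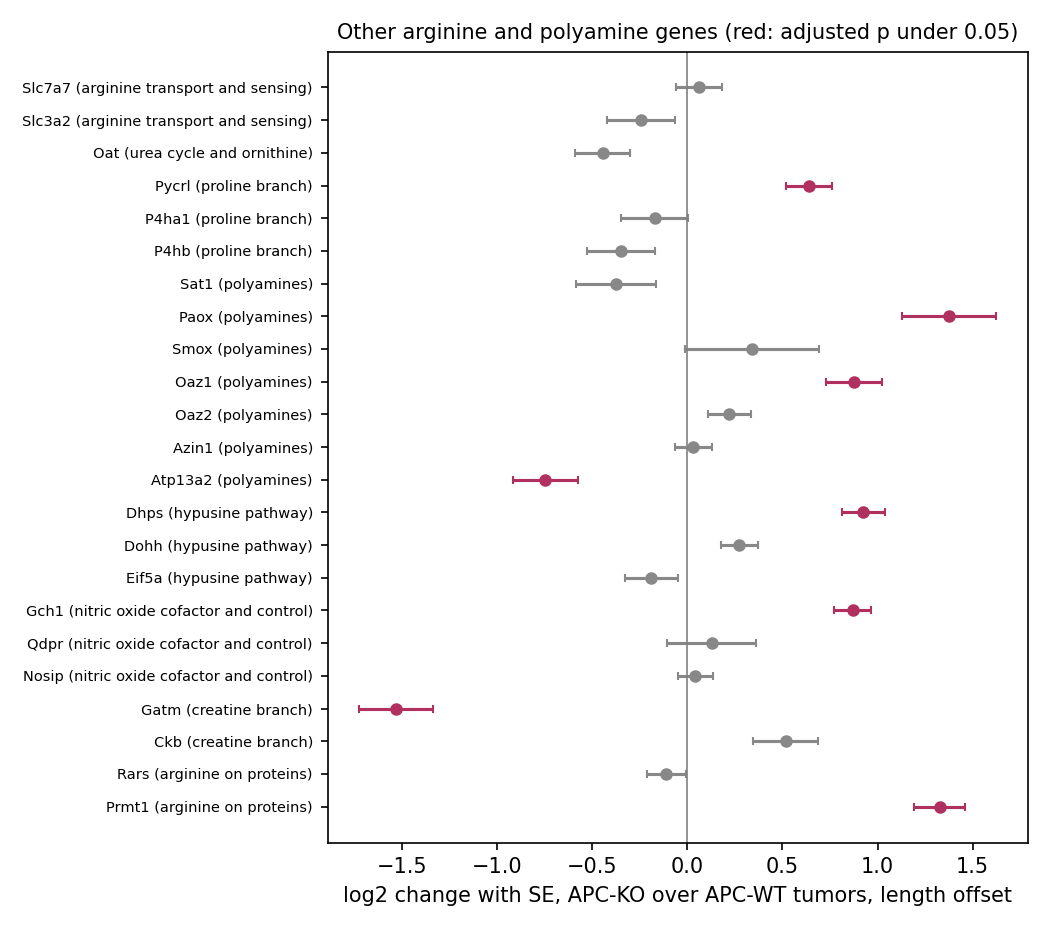
Log2 change with SE of APC-KO over APC-WT tumors (x axis, length offset, scaled to expressed genes) for the 23 expressed genes of 8 arginine and polyamine lists (y axis), in red where the adjusted p by edgeR passed. The changes run from −1.53 for Gatm to 1.38 for Paox, with 6 red points on the right and 2 on the left.

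Of 11 regulators known from macrophage arginine metabolism, 9 were expressed, 0 rose and 3 fell in APC-KO tumors, against 28.4% and 21.7% of all expressed genes. Their median was −0.28 beside 0.042 over all genes tested. Without the length offset 0 rose and 5 fell, against 32.7% and 30.8%, Rela among them. Stat6, which carries the interleukin-4 signal to Arg1, fell by 1.40 (adjusted p = 0.00278) and Irf1, on the interferon path to Nos2, by 1.09 (adjusted p = 0.00559). Hif1a, the hypoxia factor, fell by 1.84 (adjusted p = 0.00976), and Rela, a subunit of NF-kappaB, had −0.28 without passing. Stat6 averaged 122 and 124 scaled CPM across APC-KO tumors 2 and 1 and 454 and 485 in APC-WT tumors 2 and 1.

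Genes known to accompany Arg1 in alternative activation had 3 of 7 expressed, 0 that rose and 1 that fell with or without the offset, and a median of −0.23. Il4ra, a receptor chain for interleukin-4, fell by 0.83 (adjusted p = 0.0168), and Chil3 at −0.23 and Mrc1 at 0.28 did not pass and had the other sign without the offset. All 9 companions of Nos2 in classical activation were expressed, with 1 higher, 3 lower and a median of −0.34. Without the offset 0 were higher and 2 lower. Beside both companion lists, 28.4% of all expressed genes were called higher and 21.7% lower, or 32.7% and 30.8% without the offset. The median over all genes tested was 0.042 with the offset. Cd40, a costimulatory receptor, rose by 0.70 (adjusted p = 0.00920), but had 0.32 without the offset and did not pass (adjusted p = 0.0595). Ptgs2, cyclooxygenase-2, fell by 1.60 (adjusted p = 0.0158), Irf5 by 1.02 (adjusted p = 0.00654) and Il12b, a subunit of interleukin-12, by 0.72 (adjusted p = 0.0425), Il12b not passing without the offset (adjusted p = 0.0505).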

How the data were processed

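The deposited table holds raw counts, whole numbers per gene as the authors made them, for 24 libraries and 55487 gene IDs. The submitters' processing notes name HISAT2, StringTie, bcl2fastq 2.20.0 and the build mm9, without roles, settings or strand. Names, lengths and coordinates came by gene ID from GENCODE M21 (GRCm38), not the build of the notes; 55227 IDs had a symbol. No columns held identical values.

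Further values were computed in R 4.3.3 (edgeR 4.0.16, limma 3.58.1, DESeq2 1.42.0) and Python 3.11.15 (numpy 2.4.6, pandas 2.3.3, matplotlib 3.10.9, scipy 1.17.1). For genotype, the 6 libraries of each tumor were summed, and the quasi-likelihood test of edgeR compared 2 APC-KO with 2 APC-WT sums over 3941 expressed genes, with TMM, a per-tumor loess offset (span 0.5) of level on longest transcript length, and Benjamini-Hochberg adjustment at 0.05. A further fit took all 53705 genes passing filterByExpr, with the scaled total of expressed genes as library size. Tumors within a genotype were compared over 24 libraries with a mean per tumor and no offset. SE is the log2 change over the square root of F. Expected background is the counts per kb of exon over receptor genes times the gene's exon length, and satellite-like loci shared at least 0.4 of their 15-base words with Gm10800 or another such locus. Adjusted p-values with no tool beside them come from edgeR. The code was tested on simulated data.

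Named were the 8 members, up to 4 genes of each list with the smallest genotype p, 3 nearest genes of each expressed member, and the sort antigens; Ly6g was added after their values were seen. The members and lists were chosen with earlier results of these data known. In 2 lists a gene is not reported here and was left out of the counts, whatever its value. Alternatives changed the offset, scaling, background, tool, tumors and libraries. Counting precision is limited by depth, with 148 to 398 Arg2 counts in each APC-KO library.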

Additional observations from a re-analysis of the deposited data

How the results depend on the processing

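Of the genotype changes of members, 83 kept their side of the threshold and direction under the alternatives, 16 moved past the threshold and 13 reversed; within APC-KO tumors 28 of 28 held and within APC-WT tumors 27 of 28. Asl kept its call under every alternative over expressed genes, but not with TMM over all genes (−2.89, 0 genes called higher and 0 lower, 17844 at an unadjusted p under 0.05), where Arg1 was −3.43, Odc1 −3.69, Srm −3.10 and, in the fit of all genes, Slc7a2 −2.62; the median expressed gene was −4.01 there. Arg1 reversed at 5 times background (−0.14), by limma-voom (−0.065) and from libraries 4 to 6 (−0.016). At 5 times background 1932 genes were higher and 1859 lower, and Arg2 passed at −1.27. Newly past the threshold were Srm without the offset (0.96), and Odc1 with union exon length (0.60), by DESeq2 (0.43) and from libraries 4 to 6 (0.80), and Arg2 without APC-WT tumor 1 (−1.39, adjusted p = 0.0494). A fit of 24 libraries, which treats libraries as replicates, called 1757 and 1624 genes, with Arg1 −0.091, Arg2 −1.16, Nos2 −0.78, Ass1 −0.78, Odc1 0.39 and Srm 0.29. With the replicate block it called 1746 and 1626, with Arg1 −0.091, Arg2 −1.16, Nos2 −0.78, Ass1 −0.78, Odc1 0.40 and Srm 0.29. The replicate block changed no member's call within a genotype. Deviations of same-numbered libraries of different tumors had correlations from −0.46 to 0.72 (median −0.0161 over 36 pairs). Those of other numbers ran from −0.82 to 0.88. The median cannot show structure whose sign differs between tumors, and numbers were not taken to pair samples. Libraries 4 to 6 alone, libraries 1 to 3 alone and the block over 24 libraries were chosen after seeing the data. Leaving out 1 tumor at a time gave 388 to 1063 genes higher (388 without APC-KO tumor 2, 450.0 without APC-KO tumor 1) and 264 to 875 lower (264 without either APC-KO tumor), Arg1 −0.65 to 0.44, Arg2 −1.75 to −0.71, Nos2 −2.46 to 0.96 and Srm −0.011 to 0.55; over all genes it gave 4897 to 49354 higher, and Slc7a2 0.75 to 1.63. The lone tumor of an arm is assumed to vary like the others. Background subtraction over all genes gave 2524 genes lower and Slc7a2 0.53. Srm in APC-WT tumor 2 over tumor 1 passed with a length offset (−0.24). The causes were not tested. In APC-KO tumor 2, Slc7a2 was 2.22, Nos2 4.32, Ass1 4.43, Arg2 5.73 and Asl 7.31 times its expected background.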
